A study of Mus musculus with 8 samples.

Results

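The cytochrome P450 genes were examined in kidneys of cisplatin-treated and control mice. A gene was included when its row of the deposited count table held 8 values, its symbol began with Cyp followed by a digit, and its biotype was protein coding. This gave 60 genes out of 35880 rows of that kind. Another 40 protein-coding P450 genes, among them the vitamin D enzymes Cyp27b1 and Cyp2r1 and the sterol and steroid enzymes Cyp51, Cyp11a1 and Cyp17a1, stood in rows with 10 values and were not analysed here. RNA was from the kidneys of wild-type mice, described in the methods as male C57/BL6J animals, and each group held 4 libraries. Kidneys were collected 72 h after an intraperitoneal injection of saline (control 1, 2, 3 and 5) or of cisplatin (cisplatin 1, 3, 4 and 6), a platinum drug of chemotherapy that injures the proximal tubule. The age of the mice and any pooling of animals are not given in the sources used here, and if libraries did not come from separate animals the p-values would measure technical spread only. Because whole kidney was sequenced, fewer cells of a type and less RNA per cell cannot be told apart in any value below.

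Cytochrome P450 enzymes are haem proteins of the endoplasmic reticulum or the mitochondrion that insert an oxygen atom into their substrates, with electrons passed on by P450 oxidoreductase or by ferredoxin. Families 1 to 3 act largely on drugs and other foreign compounds. The Cyp4 ω-hydroxylases turn arachidonic acid into 20-hydroxyeicosatetraenoic acid (20-HETE), and the Cyp2c and Cyp2j epoxygenases turn it into epoxyeicosatrienoic acids. Both products act on renal vessels and on tubular sodium transport. Other members make or degrade steroids, bile acids, vitamin D and retinoic acid, and in the kidney many P450 enzymes are found in the proximal tubule. The 60 genes were accordingly placed in 5 groups: 23 xenobiotic genes, 28 genes of arachidonic acid and fatty acid metabolism, 6 genes of steroid, sterol and bile acid metabolism, 2 genes of vitamin D and retinoic acid degradation, and Cyp20a1, which has no settled substrate.

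The sequences just before a RefSeq start of 4 of these genes are shown. Of these, Cyp4b1, Cyp2e1 and Cyp2j5 carried most of the P450 counts of control kidneys and fell after cisplatin, whereas Cyp2s1 rose. Each line gives the 250 bases before the RefSeq transcription start in GRCm38.p6, 5′ to 3′ on the strand of the gene, with CG dinucleotides and the word TATAAA (or its reverse complement TTTATA) in capitals. The regions are chr4:115647722-115647971 on the minus strand, chr4:96664120-96664369 on the minus strand, chr7:140763569-140763818 on the plus strand and chr7:25816526-25816775 on the minus strand. By the gene coordinates of the count table, the Cyp2s1 region lies inside the gene (25802475 to 25816913). The other regions overlap the first bases of their genes, so the positions compared are unlike.
Cyp4b1: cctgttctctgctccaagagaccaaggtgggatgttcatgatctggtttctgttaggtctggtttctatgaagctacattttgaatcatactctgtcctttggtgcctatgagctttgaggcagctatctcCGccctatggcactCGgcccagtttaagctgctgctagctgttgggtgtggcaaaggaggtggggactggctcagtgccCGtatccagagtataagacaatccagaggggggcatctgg
Cyp2j5: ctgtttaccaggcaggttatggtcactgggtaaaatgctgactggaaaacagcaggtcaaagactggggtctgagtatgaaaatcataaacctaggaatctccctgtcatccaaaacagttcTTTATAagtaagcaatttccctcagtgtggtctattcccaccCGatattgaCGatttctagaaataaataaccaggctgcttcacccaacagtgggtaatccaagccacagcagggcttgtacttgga
Cyp2e1: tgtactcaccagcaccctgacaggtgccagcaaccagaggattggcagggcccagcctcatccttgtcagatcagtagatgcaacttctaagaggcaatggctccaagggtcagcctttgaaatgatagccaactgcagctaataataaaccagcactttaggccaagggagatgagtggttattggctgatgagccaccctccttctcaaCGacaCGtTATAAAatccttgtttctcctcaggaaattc
Cyp2s1: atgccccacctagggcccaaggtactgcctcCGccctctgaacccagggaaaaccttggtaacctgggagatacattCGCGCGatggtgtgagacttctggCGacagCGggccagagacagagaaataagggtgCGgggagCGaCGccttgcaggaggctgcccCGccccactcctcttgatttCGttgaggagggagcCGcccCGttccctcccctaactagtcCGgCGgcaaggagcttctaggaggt
The printed sequence of Cyp2s1 held 15 CG dinucleotides, whereas that of Cyp4b1 held 3 and those of Cyp2j5 and Cyp2e1 held 2 each. TATAAA began 31 bases before the RefSeq start of Cyp2e1, and TTTATA began 128 bases before that of Cyp2j5.

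Over the rows used, total counts ranged from 13539665 to 16201443 in the control libraries and from 10953338 to 16701599 in the cisplatin libraries. A count of 3, taken as the smallest measurable level, was 0.180 to 0.274 CPM (counts relative to the size of the library) by these totals and covers counting error only. In a principal component analysis of all expressed genes, the first component held 73.5% of the variance and separated the groups, and the second, with 15.96%, set control 5, cisplatin 4 and cisplatin 6 (the second library set) apart from the other 5 libraries (the first library set). The labels name no batch. Cisplatin 1 and cisplatin 3 had almost no counts on the Y-linked genes Eif2s3y (3 and 0) and Kdm5d (2 and 0), against 541 to 1333 and 274 to 576 counts in the other 6 libraries, so these libraries go against the description of all mice as male. The results on members, sums and gene lists are therefore given with and without them. All 19 tested proximal tubule markers fell, and their summed level was 75440 to 94370 CPM in controls against 2131, 1711, 10090 and 15970 CPM in cisplatin 1, 3, 4 and 6. Without Kap, its most abundant member, the sum was 45730 to 59310 CPM in controls and 1587, 1482, 3874 and 4950 CPM after cisplatin. In 15 of the 19 markers both cisplatin 1 and 3 lay below both cisplatin 4 and 6, the exceptions being Lrp2, Aqp1, Gatm and Slc5a12. The share of all genes with this order was not determined, so the count has no background beside it. The part of either pattern in the P450 values was not tested.

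Of the 60 P450 genes, 27 passed the filter on low counts and were tested. Kidneys from cisplatin-treated mice showed a loss of the P450 transcripts that dominate the control kidney, while a small number of members of the Cyp4f, Cyp2s and Cyp2t subfamilies rose. Of the tested members, 16 (59.3%) were called lower, 4 (14.8%) higher and 7 were not called, where a call needed edgeR's adjusted p to be below 0.05 and the log2 fold change to be 1 or more in either direction. Among all 9141 genes tested, 15.7% were called lower and 19.2% higher, 34.9% in all. The share of P450 genes called higher was thus close to the background. The median log2 fold change of the tested members was -1.64, against 0.08 over all genes tested. The control and cisplatin libraries did not overlap for 19 members, with cisplatin below the controls for 15 and above for 4, against 22.5% and 23.7% of all genes. In 4 members (Cyp2f2, Cyp2j7, Cyp4f14 and Cyp2t4) only the group with the higher level reached the filter in all its libraries, so that a difference was built into their passing. Without cisplatin 1 and 3, 28 members were tested, of which 15 were called lower and 5 higher. Of these, 14 and 4 were the same genes, the fifth higher gene being Cyp2d10, which could pass the filter only through its level after cisplatin. Of all 9261 genes tested in that fit, 20.5% were called lower and 21.4% higher. Scaling by total library size in place of TMM raised the median log2 fold change of all genes by 0.57, and then 11 members (40.7%) were called lower and 6 (22.2%) higher, against 8.78% and 34.7% of all genes.

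The 33 members that were not tested included 31 with at most 3 counts in every library, 15 of them at 0 throughout. They comprised the 7 Cyp3a genes among the 60, a subfamily that includes the main drug-metabolising P450 enzymes of the liver (Cyp3a11 and Cyp3a13 were in rows not used here), 11 of the 12 Cyp2c members, and the adrenal steroid enzymes Cyp11b1 and Cyp11b2 together with aromatase, Cyp19a1. The exceptions among the low members were Cyp11b1, with 4 counts in cisplatin 1, and Cyp2d10. Cyp2d10 had 0 to 2 counts in the controls and 8, 5, 48 and 39 counts in cisplatin 1, 3, 4 and 6. Its mean in the cisplatin group was 1.81 CPM, at least 6.82-fold higher than the level of 3 counts in the control with the highest such level, 0.266 CPM. Without cisplatin 1 and 3 it passed the filter, but only through cisplatin 4 and 6, so that a difference was built into its call as higher. Further, 11.7% of its 100-base stretches occurred in other genes.

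**Figure D1:**
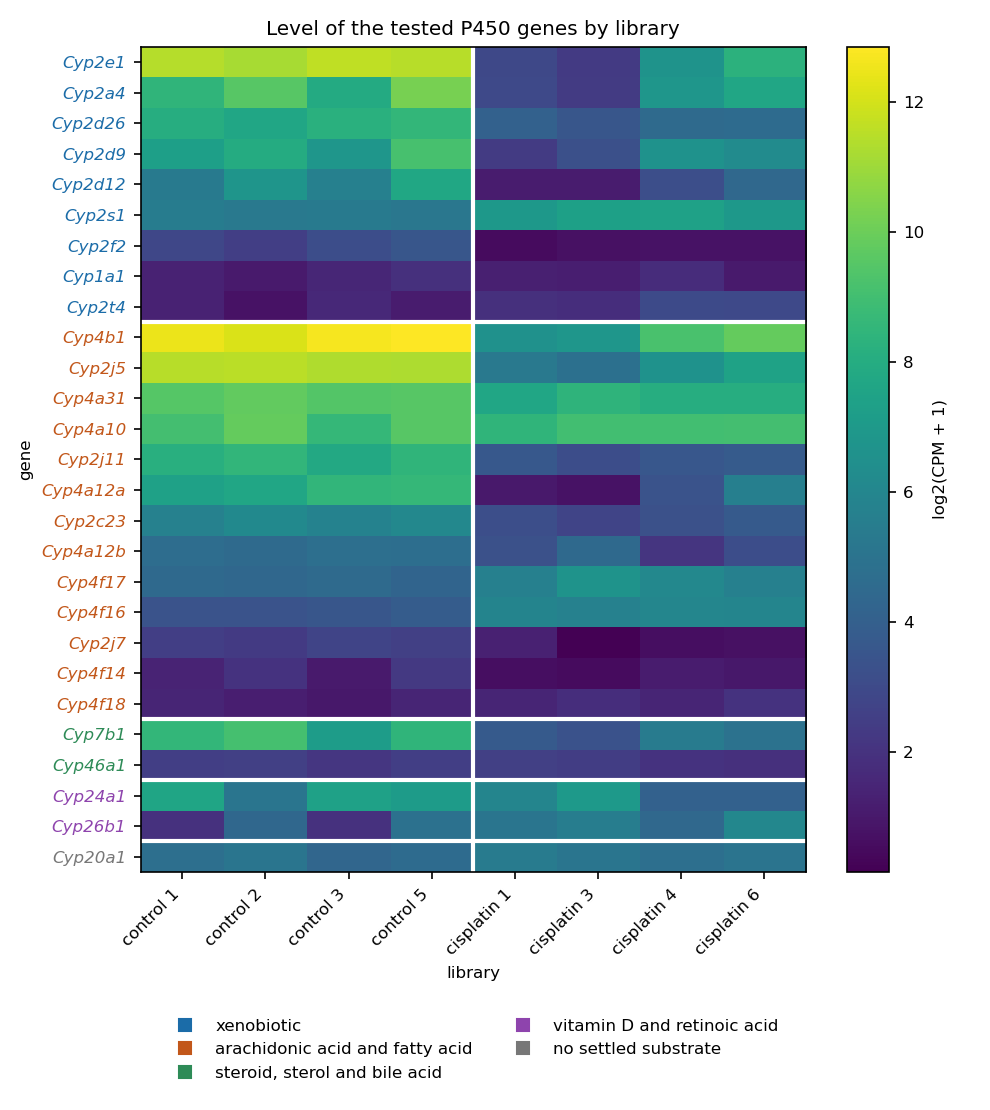
Levels of the 27 tested P450 genes (rows, coloured by group) in the 8 libraries (columns), as log2(CPM + 1) with TMM-normalised CPM. Cyp4b1, Cyp2e1 and Cyp2j5 are the brightest rows in the 4 controls, and the rows of Cyp2e1, Cyp2a4, Cyp2d9 and Cyp4a12a are darker in cisplatin 1 and 3 than in cisplatin 4 and 6.

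The summed level of the 60 members was 14560, 14210, 15180 and 18000 CPM in control 1, 2, 3 and 5, and 1132, 1595, 2249 and 2990 CPM in cisplatin 1, 3, 4 and 6. The means were 15490 ± 1722 CPM (SD, n = 4) and 1992 ± 808 CPM (SD, n = 4), a sum 7.78-fold lower after cisplatin, with no overlap between the groups. As a share of all counts, P450 transcripts made up 1.21% to 1.41% in controls and 0.149% to 0.344% after cisplatin. The sum was 10-fold lower in the xenobiotic group, 7.61-fold in the arachidonic acid and fatty acid group, 13.1-fold in the steroid, sterol and bile acid group and 1.54-fold in the vitamin D and retinoic acid group, where the ranges of 52.4 to 196 CPM and 36.3 to 172 CPM overlapped. When Cyp4b1, Cyp2e1 and Cyp2j5 were taken out of the sum, the difference was 2.91-fold (3986 ± 1101 against 1372 ± 260 CPM). With cisplatin 1 and 3 left out, the sum of all members was 5.91-fold lower, and that of the groups in the same order 6.40-fold, 5.86-fold, 9.17-fold and 2.52-fold lower. The number of members with at least 1 CPM was 26 or 27 in controls and 23 to 26 in the cisplatin libraries.

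The composition of the P450 transcripts also differed between the groups. Cyp4b1, Cyp2e1 and Cyp2j5 together held 68.5% to 81.0% of P450 counts in the controls but 12.3%, 9.09%, 35.1% and 47.0% in cisplatin 1, 3, 4 and 6. Corrected for gene length, Cyp4b1 (2661 CPM per kb), Cyp2e1 (1289) and Cyp2j5 (1157) held the top ranks in the control mean, followed by Cyp2a4 (363), Cyp4a10 (305) and Cyp4a31 (304). After cisplatin the order was Cyp4a10 (223 CPM per kb), Cyp4b1 (190), Cyp4a31 (106), Cyp2e1 (48.9) and Cyp2a4 (47.0) in the mean of the 4 libraries. This order was not that of each library. Cyp4a10 led in cisplatin 1 and 3, whereas Cyp4b1 led in cisplatin 4 (27.2% of P450 transcripts per length, against 24.7% for Cyp4a10) and cisplatin 6 (31.1% against 19%). In cisplatin 1 and 3, Cyp2j5 (3.49% and 1.83%) lay above Cyp2e1 (0.646% and 0.28%) and Cyp2a4 (0.836% and 0.367%). Per length, Cyp4a10 made up 4.43% ± 1.75 of P450 transcripts in controls (SD, n = 4) and 29.2% ± 8.82 after cisplatin (SD, n = 4), at a level that was not itself higher after cisplatin, and its share ranged from 2.74% to 6.87% in controls and from 19% to 37.6% after cisplatin.

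**Figure D2:**
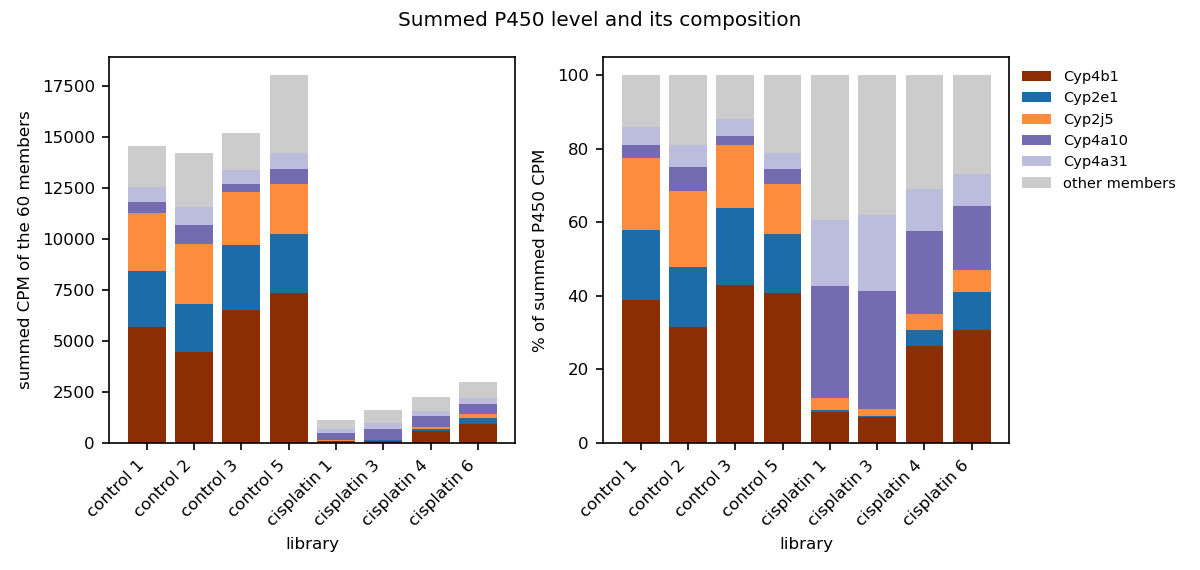
Summed TMM-normalised CPM of the 60 P450 genes (left, stacked bars per library) and each gene's share of that sum in percent (right), for the 5 genes named and all other members in grey. The bars fall from 14210 to 18000 CPM in the controls to 1132 to 2990 CPM after cisplatin, and Cyp4b1, Cyp2e1 and Cyp2j5 shrink from 68.5% or more of the bar to 47.0% or less.

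In the xenobiotic group, 9 of 23 members were tested, of which 6 (66.7%) were called lower, 2 (22.2%) higher and 1 not called, with a median log2 fold change of -2.95. The share called higher was near the 19.2% of all genes, and the share called lower was above their 15.7%. Cyp2e1, which oxidises ethanol, acetone and small solvents, showed the deepest fall of the group. Its level was 2741, 2343, 3163 and 2879 CPM in controls 1, 2, 3 and 5, and 6.41, 3.90, 99.1 and 313 CPM in cisplatin 1, 3, 4 and 6. The cisplatin libraries thus lay far below every control but differed among themselves by more than an order of magnitude. This was a log2 fold change of -4.72 ± 1.22 (SE, adjusted p = 0.00989), or 26.4-fold, and -3.75 (adjusted p = 0.000417) without cisplatin 1 and 3.

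The 3 tested Cyp2d genes, relatives of the human drug-metabolising enzyme CYP2D6, were called lower over all libraries, while the untested Cyp2d10 had more counts after cisplatin. Cyp2d26 fell from 261, 204, 299 and 380 CPM to 15.8, 10.6, 22.0 and 23.2 CPM (log2 fold change -4.003 ± 0.305 SE, adjusted p = 1.05e-05), with cisplatin libraries that lay close to each other, and the log2 fold change was -3.65 without cisplatin 1 and 3. Cyp2d12 had 39.9, 108, 50.4 and 207 CPM in controls and 1.18, 1.16, 8.20 and 20.9 CPM after cisplatin (-3.72 ± 0.95 SE, adjusted p = 0.00941, and -2.79 with adjusted p = 0.0151 without cisplatin 1 and 3). Cyp2d9, known as a testosterone hydroxylase of male mice, had 158, 247, 110 and 573 CPM in controls and 4.18, 8.58, 96.1 and 76.7 CPM after cisplatin (-2.56 ± 0.94 SE, adjusted p = 0.0449). For Cyp2d9 the groups did not overlap, but the lowest control lay only just above cisplatin 4, and without cisplatin 1 and 3 it was not called (log2 fold change -1.64, adjusted p = 0.0546). Of the 100-base stretches of Cyp2d9, 7.91% occur in other genes, so that reads may be split between copies.

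Cyp2a4, a steroid 15α-hydroxylase known to be higher in the liver of female mice, was close to the threshold. Its values were 356, 740, 240 and 1189 CPM in controls and 6.69, 4.12, 111 and 205 CPM after cisplatin, with control 3 only slightly above cisplatin 6. The log2 fold change was -2.95 ± 1.11 (SE, adjusted p = 0.0499), and -1.99 (adjusted p = 0.0312) without cisplatin 1 and 3. The call was lost without any of control 1, 2, 3 and 5 or cisplatin 1, 3 and 4 (adjusted p = 0.0536 to 0.109), and 11.2% of its 100-base stretches are shared with Cyp2a5 and a pseudogene. Cyp2f2, which is best known from the club cells of the airway, was low throughout and fell from 4.63 to 10.8 CPM in controls to 0.455 to 0.732 CPM after cisplatin (log2 fold change -3.53 ± 0.36 SE, adjusted p = 5.6e-05, and -3.32 without cisplatin 1 and 3).

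The 2 xenobiotic genes called higher were Cyp2s1 and Cyp2t4. Cyp2s1, an extrahepatic P450 that is inducible through the aryl hydrocarbon receptor, had 43.9, 37.3, 41.0 and 35.8 CPM in controls and 118, 163, 168 and 120 CPM after cisplatin. All 4 cisplatin libraries lay above all controls, and the cisplatin mean was 140.7 CPM in the first library set and 143.8 CPM in the second. The log2 fold change was 1.85 ± 0.17 (SE, adjusted p = 3.12e-05), and 1.87 without cisplatin 1 and 3. A stretch of 260 exonic bases of Cyp2s1 is overlapped on the opposite strand by Gm26707, and since it is not known whether counting used strand, reads of the 2 genes cannot be told apart there. Cyp2t4 had 0.718 to 2.05 CPM in controls and 2.77, 2.47, 7.10 and 6.74 CPM in cisplatin 1, 3, 4 and 6 (log2 fold change 1.77 ± 0.47 SE, adjusted p = 0.0117, and 2.32 without cisplatin 1 and 3). The first library set alone gave no call for it (log2 fold change 0.79, adjusted p = 0.133). Cyp1a1, the classical target of the aryl hydrocarbon receptor, was at 1.12 to 2.75 CPM in controls and 1.11 to 2.42 CPM after cisplatin, with overlapping groups (log2 fold change -0.24 ± 0.38 SE, adjusted p = 0.633, and -0.04 without cisplatin 1 and 3).

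Among the genes of arachidonic acid and fatty acid metabolism, 13 of 28 were tested, and 9 (69.2%) were called lower, 2 (15.4%) higher and 2 not called, with a median log2 fold change of -1.64. The share called lower was above the 15.7% of all genes, and the share called higher was near their 19.2%. All 4 tested epoxygenases of the Cyp2c and Cyp2j subfamilies fell. Cyp2j5, an epoxygenase abundant in mouse kidney, had 2850, 2923, 2593 and 2486 CPM in controls and 37.7, 27.8, 97.7 and 175 CPM after cisplatin. Controls were close to each other, and every cisplatin library was more than an order of magnitude lower, with cisplatin 1 and 3 the lowest. The log2 fold change of -5.01 ± 0.59 (SE, adjusted p = 0.00012), or 32.1-fold, was the lowest of the 27 tested members over all libraries. Without cisplatin 1 and 3 it was -4.31 (adjusted p = 3.26e-05), and Cyp2j11 was then lower (-4.66), whereas in the first library set alone Cyp2e1 was lowest (-9.10).

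Cyp2j11, which lies in the same stretch of chromosome 4 as Cyp2j5, fell by almost as much and far more evenly. It had 281, 363, 226 and 349 CPM in controls and 11.5, 7.92, 11.1 and 13.0 CPM after cisplatin (log2 fold change -4.81 ± 0.24 SE, adjusted p = 1.2e-06), and -4.66 without cisplatin 1 and 3. Cyp2j7 was low, at 3.99 to 5.69 CPM in controls and 0.110 to 1.46 CPM after cisplatin (-2.78 ± 0.56 SE, adjusted p = 0.00267, and -3.04 without cisplatin 1 and 3). The only tested Cyp2c gene was Cyp2c23, an arachidonic acid epoxygenase of the renal tubule, with 51.5, 71.3, 53.2 and 66.4 CPM in controls and 8.28, 5.72, 8.78 and 12.2 CPM after cisplatin (-2.80 ± 0.25 SE, adjusted p = 2.42e-05). Without cisplatin 1 and 3 its log2 fold change was -2.52.

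The ω-hydroxylases and related Cyp4 enzymes were split. Cyp4b1, an enzyme of short and medium fatty acids that also activates furan pro-toxins, was the most abundant P450 transcript of the control kidney, at 5676, 4471, 6533 and 7338 CPM, and had 95.01, 113, 593 and 917 CPM in cisplatin 1, 3, 4 and 6. The groups were far apart, and cisplatin 1 and 3 were again the lowest. Its log2 fold change was -3.81 ± 0.72 (SE, adjusted p = 0.00195), or 14.0-fold, and -2.98 (adjusted p = 0.000134) without these libraries.

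The Cyp4a genes, targets of the fatty acid receptor PPARα, differed among themselves. Cyp4a12a, the main 20-HETE synthase of male mouse kidney, had 167, 203, 358 and 387 CPM in controls and 1.001, 0.715, 9.37 and 49.2 CPM after cisplatin (log2 fold change -4.23 ± 1.16 SE, adjusted p = 0.013, and -3.25 without cisplatin 1 and 3). Its near-copy Cyp4a12b had 24.6, 22.6, 26.9 and 25.6 CPM in controls and 8.87, 21.7, 3.29 and 7.93 CPM after cisplatin (-1.25 ± 0.45 SE, adjusted p = 0.0432), so that in cisplatin 1 and 3, where Cyp4a12a was lowest, Cyp4a12b was highest among the cisplatin libraries. Of their 100-base stretches, 35.8% and 36.2% occur in the other gene, and their separate levels are therefore uncertain. The call of Cyp4a12b was lost in 13 of 21 other settings, among them the removal of any single library other than cisplatin 3 (adjusted p = 0.0516 to 0.1), while without cisplatin 1 and 3 together its log2 fold change was -2.15 (adjusted p = 0.00107).

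Cyp4a31 and Cyp4a10, which lie next to each other, kept more of their level than the other abundant members. Cyp4a31 fell from 732, 873, 706 and 742 CPM to 203, 333, 262 and 264 CPM (log2 fold change -1.52 ± 0.19 SE, adjusted p = 0.00015), and the log2 fold change was -1.53 without cisplatin 1 and 3. Cyp4a10 had 523, 925, 390 and 736 CPM in controls and 344, 513, 504 and 523 CPM after cisplatin. These ranges overlapped, and the log2 fold change of -0.45 ± 0.27 (SE) did not pass the test (adjusted p = 0.199, and 0.426 without cisplatin 1 and 3). Scaled by total library size, it was 0.10. Of its 100-base stretches, 12.2% are shared with Cyp4a32 and Cyp4a31.

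The Cyp4f genes, ω-hydroxylases of leukotriene B4 and of long-chain fatty acids, held the only called increases of the group. Cyp4f16 had 9.65, 9.57, 10.8 and 13.6 CPM in controls and 58.7, 52.5, 61.3 and 60.2 CPM after cisplatin, a log2 fold change of 2.41 ± 0.17 (SE, adjusted p = 6.54e-06), or 5.32-fold. Cyp4f17, its neighbour on chromosome 17, had 21.7, 20.02, 22.1 and 17.7 CPM in controls and 50.4, 102, 66.98 and 50.9 CPM after cisplatin (1.73 ± 0.24 SE, adjusted p = 0.000331). For both genes all cisplatin libraries lay above all controls, and without cisplatin 1 and 3 the log2 fold changes were 2.48 and 1.54. Cyp4f14 was low and fell from 1.06 to 3.77 CPM to 0.440 to 1.17 CPM, with overlapping groups (-1.64 ± 0.49 SE, adjusted p = 0.0192), and it was not called without cisplatin 1 and 3 (-1.15, adjusted p = 0.114). Its call was lost in 6 of 20 other settings, among them total library size and the removal of control 2, control 5 or cisplatin 1 alone (adjusted p = 0.0502 to 0.0676 in these 4). Cyp4f18, the leukotriene B4 hydroxylase of neutrophils, had 0.986 to 1.77 CPM in controls and 1.76 to 3.09 CPM after cisplatin and was not called (0.64 ± 0.33 SE, adjusted p = 0.133, and 0.73 with adjusted p = 0.142 without cisplatin 1 and 3), except that it was called higher with total library size (1.20, adjusted p = 0.00977).

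**Figure D3:**
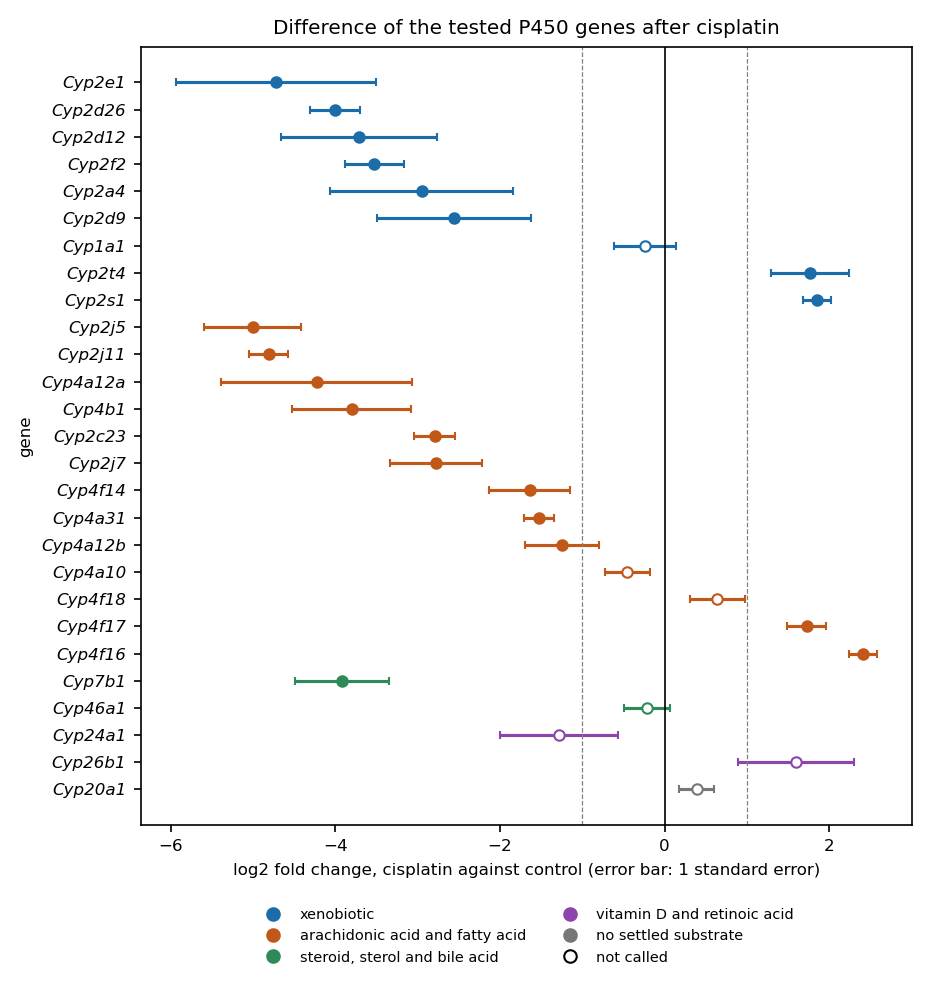
Log2 fold change of cisplatin against control for each of the 27 tested P450 genes, with 1 standard error, coloured by group. Filled points were called, open points were not, and the dashed lines mark a log2 fold change of 1 in either direction. The values run from -5.01 for Cyp2j5 to 2.41 for Cyp4f16.

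In the steroid, sterol and bile acid group, 2 of 6 members were tested. Cyp7b1, the oxysterol 7α-hydroxylase that also acts on dehydroepiandrosterone, fell from 374, 540, 141 and 355 CPM in controls to 12.6, 9.13, 42.5 and 29.6 CPM in the cisplatin libraries. Every cisplatin library was below the lowest control, control 3. The log2 fold change was -3.92 ± 0.57 (SE, adjusted p = 0.000427), or 15.1-fold, and -3.29 (adjusted p = 0.00152) without cisplatin 1 and 3. Cyp46a1, the cholesterol 24-hydroxylase best known from neurons, was low, at 3.49 to 4.79 CPM in controls and 2.70 to 4.82 CPM after cisplatin, and was not called (-0.22 ± 0.28 SE, adjusted p = 0.549, and -0.59 with adjusted p = 0.107 without cisplatin 1 and 3). The sign of this difference turned to positive, still without a call, when counts were scaled by total library size (0.36).

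Neither of the vitamin D and retinoic acid genes passed the test over all libraries, and both were spread widely within the groups. Cyp24a1, the 24-hydroxylase that inactivates vitamin D, had 194, 32.8, 169 and 136 CPM in controls 1, 2, 3 and 5 and 59.99, 126, 15.8 and 15.9 CPM in cisplatin 1, 3, 4 and 6. Control 2 lay among the cisplatin libraries, and cisplatin 1 and 3 lay among the controls. Its log2 fold change was -1.28 ± 0.72 (SE, adjusted p = 0.163). Without cisplatin 1 and 3 it was -3.05 (adjusted p = 0.00566) and the gene was called lower, and without cisplatin 3 alone it was -2.14 (adjusted p = 0.0261).

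Cyp26b1, which degrades retinoic acid, had 2.83, 19.6, 2.96 and 28.2 CPM in controls and 33.0, 45.8, 20.5 and 63.6 CPM after cisplatin. Controls 1 and 3 were low and controls 2 and 5 were close to the cisplatin range, so that the groups overlapped at cisplatin 4. Over all libraries the log2 fold change was 1.60 ± 0.71 (SE, adjusted p = 0.0863), and 1.65 (adjusted p = 0.143) without cisplatin 1 and 3. Without control 5 it was 2.24 (adjusted p = 0.0335), and DESeq2 on the same genes also called it higher (1.57, adjusted p = 0.037). Cyp20a1, the member without a settled substrate, was at 19.3 to 33.1 CPM in controls and 27.01 to 42.3 CPM after cisplatin and was not called (0.39 ± 0.21 SE, adjusted p = 0.15, and 0.21 without cisplatin 1 and 3).

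Members that lie near each other in the genome moved in the same direction in some stretches and in different directions in others. Of all tested members, 59.3% were called lower. On chromosome 4 (GRCm38), all 3 tested Cyp2j genes between 96099318 and 96664154 fell, as did 4 of the 5 tested genes of the Cyp4a and Cyp4b1 stretch between 115242084 and 115647723, where Cyp4a10 was the exception. All 3 tested Cyp2d genes on chromosome 15 between 82402846 and 82794294 fell, whereas Cyp2d10, in the same stretch, was the low gene with more counts after cisplatin. On chromosome 7, Cyp2s1 rose and Cyp2a4 fell between 25802475 and 26315088, and Cyp2t4 rose and Cyp2f2 fell between 26931631 and 27158668. On chromosome 17, between 32506462 and 32917342, Cyp4f16 and Cyp4f17 rose and Cyp4f14 fell. Outside these stretches lay Cyp2e1 on chromosome 7 (140763739 to 140774987), Cyp2c23 on chromosome 19 (44005022 to 44029208), Cyp7b1 on chromosome 3 (18071950 to 18243338), Cyp24a1 on chromosome 2 (170482708 to 170497145) and Cyp26b1 on chromosome 6 (84571414 to 84593908). Exons of a gene on the opposite strand overlapped Cyp2f2 (Gm15883, 274 bases), Cyp4f18 (Zfp961, 181 bases) and Cyp24a1 (Pfdn4, 83 bases), and 5.95% of the 100-base stretches of Cyp4f16 occurred in other genes, chiefly Cyp4f37, so part of these counts is uncertain as well. No gene was tested in the Cyp3a stretch of chromosome 5 or the stretch of 11 Cyp2c genes of chromosome 19.

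RefSeq promoter windows, from 250 bases before to 50 bases after a start, were matched by symbol for 46 of the 60 members and 17 of the tested ones. A RefSeq start need not be the one used in kidney. In the windows of the 9 members called lower, the number of CG dinucleotides was 0 to 5 with a median of 2, against a median of 7 over all 32851 windows. Windows of the 29 untested members also had a median of 2, so this composition was not particular to members that fell. The 3 members called higher had 2 (Cyp4f16), 4 (Cyp2t4) and 17 (Cyp2s1), and the 5 that were not called had 3 to 31 with a median of 9. The word TATAAA, read on both strands, occurred in 5 of the 9 lower members (Cyp2a4, Cyp2d26, Cyp2d9, Cyp2e1 and Cyp2j5), in 0 of the 3 higher members, in 2 of the 5 that were not called, in 18 of the 29 untested members and in 13.6% of all windows. The word AGGTCA, part of many nuclear receptor sites, occurred in 3 of the 9 lower, 1 of the 3 higher, 0 of the 5 uncalled and 11 of the 29 untested members and in 16.3% of all windows. GCGTG, the core of the aryl hydrocarbon receptor site, occurred in 1 of the 9 lower, 1 of the 3 higher, 3 of the 5 uncalled and 2 of the 29 untested members and in 32.4% of all windows. No GCGTG was found in the window of Cyp2s1. A match of letters is not evidence of binding.

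The cisplatin difference was then compared between the library sets by an interaction term fitted over all genes. The sets were read off the principal components of these same libraries, and the second set has a single control, which is assumed to vary like the other libraries, so the p-values describe a split taken from the data. Of the 27 tested members, 3 passed an adjusted p of 0.05, against 4.31% of all genes. The fall of Cyp2e1 was smaller by 5.24 ± 0.80 on the log2 scale (SE, adjusted p = 0.0177) in the second set, that of Cyp4b1 by 2.46 ± 0.41 (adjusted p = 0.0213) and that of Cyp2j5 by 2.22 ± 0.42 (adjusted p = 0.0291). For Cyp2e1 the cisplatin mean was 5.16 CPM in the first set and 206 CPM in the second, at control means of 2749 and 2879 CPM. Cyp2a4 (3.44, adjusted p = 0.0541) and Cyp4a12a (4.38, adjusted p = 0.0676) did not pass. Without control 1 no member passed in edgeR (adjusted p of 0.0624, 0.0726 and 0.0925 for Cyp2e1, Cyp4b1 and Cyp2j5), and without control 3 there were 5.

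Members that fell differed in how far the cisplatin libraries were from each other. The ratio of the mean of cisplatin 4 and 6 to that of cisplatin 1 and 3 was 39.9 for Cyp2e1, 34.1 for Cyp4a12a, 29.2 for Cyp2a4, 13.5 for Cyp2d9 and 12.5 for Cyp2d12. It was 1.24 for Cyp2j11, 1.5 for Cyp2c23, 1.71 for Cyp2d26 and 0.981 for Cyp4a31. Cyp4a12b, also called lower, went the other way with a ratio of 0.367, as did Cyp24a1, which was not called, with 0.171. Of 7 P450 genes listed as higher in male mouse kidney or liver, Cyp4b1, Cyp2e1, Cyp7b1, Cyp2d9, Cyp4a12a and Cyp4a12b were in the rows used. All 6 were called lower (5 of the 6 without cisplatin 1 and 3). Called lower were 59.3% of the tested members and 15.7% of all genes, or 53.6% and 20.5% without cisplatin 1 and 3. The summed level of the 6 was 7827 to 11560 CPM in controls and 128, 157, 844 and 1393 CPM in cisplatin 1, 3, 4 and 6. Of the 8 listed as higher in female mouse kidney or liver, 6 were in the rows used and Cyp2a4 alone was tested. The other 5 had at most 1 count in any library. Both lists pool kidney and liver, so the bias of a listed gene need not hold in kidney. Cisplatin 1 and 3 are the libraries without Y-linked counts and, at the same time, those with the lowest summed proximal tubule markers, with or without Kap, and members of the first library set. These cannot be told apart here.

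**Figure D4:**
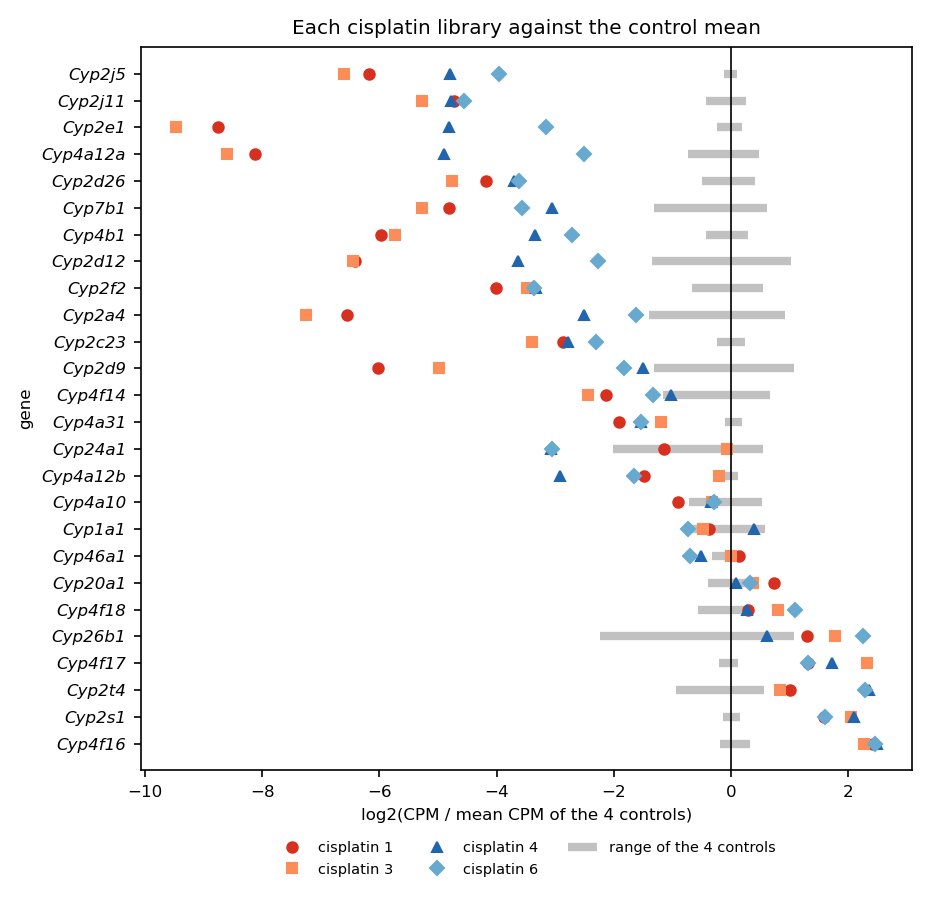
Level of each cisplatin library relative to the mean of the 4 controls, as log2(CPM / control mean), for the 26 tested P450 genes with more than 3 counts in every library (Cyp2j7 is left out). Grey bars span the 4 controls. Cisplatin 1 and 3 lie well to the left of cisplatin 4 and 6 for Cyp2e1, Cyp4a12a, Cyp2a4 and Cyp2d9, whereas the 4 libraries lie together for Cyp2j11, Cyp4a31 and Cyp4f16.

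Genes related to the work of the P450 enzymes were examined from fixed lists. Of 21 listed genes of electron transfer and haem metabolism, 9 were in the rows used, and all were tested. The cytochrome b5 genes Cyb5a (log2 fold change -1.92, adjusted p = 0.000661) and Cyb5b (-1.31, adjusted p = 0.00012) were called lower and the ferredoxin Fdx1l (1.16, adjusted p = 0.0425) higher. Fdx1l was low, at 11 to 13 counts in controls and 35, 18, 47 and 35 counts in cisplatin 1, 3, 4 and 6. Its level in cisplatin 3, 0.990 CPM, lay within the control range of 0.834 to 1.06 CPM. Por, the P450 oxidoreductase, was at 717 ± 104 CPM in controls and 543 ± 214 CPM after cisplatin (SD, n = 4) and was not called (-0.40 ± 0.28 SE, adjusted p = 0.263). Fech, which inserts iron to form haem, had a log2 fold change of -0.93 (adjusted p = 0.000537), short of the fold needed for a call. The 2 lower and 1 higher of 9 genes stand beside 15.7% and 19.2% of all genes, and the median of the 9 was -0.40. In the fit that left out cisplatin 1 and 3, Cyb5a (-1.47) and Cyb5b (-1.45) were again lower, Fdx1l (1.68) was higher, and so was the biliverdin reductase Blvrb (2.24), which was not called over all libraries (1.46, adjusted p = 0.0721), while Por was at 0.02.

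Of 12 listed enzymes that act on eicosanoids and epoxides, 4 were tested. Ephx2, the soluble epoxide hydrolase that breaks down epoxyeicosatrienoic acids, was lower (log2 fold change -2.58, adjusted p = 0.00102), as was the thromboxane synthase Tbxas1 (-3.34, adjusted p = 2.42e-05). The epoxide hydrolase Ephx3 was higher (1.73, adjusted p = 0.00517), and the prostacyclin synthase Ptgis was not called. Tbxas1 and Ptgis are themselves P450 enzymes, and were not among the members because their symbols do not begin with Cyp. The 2 lower and 1 higher of 4 genes stand beside 15.7% and 19.2% of all genes. The calls were the same without cisplatin 1 and 3, at -1.95, -3.89 and 2.13 for Ephx2, Tbxas1 and Ephx3.

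Of 34 listed receptors, binding proteins and related genes that govern P450 genes or carry their substrates, 17 were tested, of which 7 were lower and 3 higher, with a median log2 fold change of -0.75. Over all genes tested, 15.7% were lower and 19.2% higher, so that the share of the list called higher was near the background. The counts were also 7 lower and 3 higher without cisplatin 1 and 3. Among the lower genes were Lrp2 and Cubn, the receptors that take up the vitamin D binding protein, the co-receptor Kl of fibroblast growth factor 23 (-4.23), the vitamin D receptor Vdr (-1.47), and the transcription factors Hnf4a (-3.18) and Rxra (-1.25). The higher genes were the retinoic acid synthases Aldh1a2 (4.08) and Aldh1a3 (1.97) and the retinoic acid binding protein Crabp2 (at most 3 counts in every control and 30, 61, 102 and 49 counts in cisplatin 1, 3, 4 and 6). Only the cisplatin group reached the filter in all its libraries for Crabp2 and Aldh1a3 (9 to 33 counts in controls), so that their difference was built into their passing. The receptors Ahr (0.34, adjusted p = 0.319) and Ppara (-0.81, adjusted p = 0.0596) were not called.

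Markers of other cells gave the following levels beside these results. Their calls stand beside 15.7% lower and 19.2% higher of all genes tested, or 20.5% and 21.4% without cisplatin 1 and 3. In lists this short, counts of 1 or 2 genes cannot be set apart from those shares. Of 9 tested markers of the distal tubule and collecting duct, 4 were lower and 1 higher. Their summed level was 8500 to 12900 CPM in controls and 6256, 4238, 2568 and 1312 CPM in cisplatin 1, 3, 4 and 6. Cisplatin 1 and 3 thus had the highest sums of the cisplatin libraries here, whereas they had the lowest for the proximal tubule markers. Of 8 tested leukocyte markers, 4 were higher and 1 lower (128 to 164 CPM against 151 to 229 CPM). The lower one was Ptprc, the gene of CD45 (log2 fold change -1.44, adjusted p = 0.0102). For 3 of the 4 higher ones (Itgam, S100a8 and S100a9) only the cisplatin group reached the filter in all its libraries, so that the difference was built into their passing. The other was Cd14, with a mean of 7.76 CPM in controls and 81.2 CPM after cisplatin, which is part of the higher sum. Likewise, Slc4a1 among the lower distal, Slc7a13 among the lower proximal tubule and Alb among the lower liver markers reached it in all libraries of the control group alone. Of 5 tested endothelial and stromal markers, 2 were higher and 3 were not called (421 to 620 CPM against 568 to 1348 CPM). Of 5 tested liver markers, 1 was higher and 2 lower (14.3 to 25.6 CPM against 41.5 to 102 CPM). The higher one was the fibrinogen gene Fgb, without which the sum was 11.9 to 23.2 CPM in controls and 2.58 to 13.9 CPM after cisplatin, and the albumin gene Alb was at 6.83 to 12.0 CPM in controls and 0.495 to 3.73 CPM after cisplatin. The adrenal markers Nr5a1, Dbh and Th had at most 1 count in every library, and of the 2 adrenal markers tested, Scarb1 was higher. All 19 proximal tubule markers were again lower without cisplatin 1 and 3, and the numbers called higher and lower were 1 and 6 of 9 distal and collecting duct, 4 and 1 of 8 leukocyte, 2 and 1 of 5 endothelial and stromal, 2 and 1 of 5 liver and 1 and 0 of 2 adrenal markers. The part of these cell types in the P450 results was not tested.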

How the data were processed

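Groups and replicate numbers were read from the library labels. The methods name TRIzol extraction, paired-end sequencing, alignment to GRCm38 with HISAT2 and a GEXSCOPE kit, whereas the labels describe a VAHTS kit that marks strand, and which was used is not known. fastp is also named in the submitters' processing notes. How reads were counted, on which annotation release and with which strand option is not given in the sources used here. The authors deposited raw read counts per gene, without normalization. Of 53715 rows, 35880 held 8 values and were used, and 17835 held 10 values, which could not be assigned to libraries. No step used the 2 extra columns without a name.

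The test was run with edgeR 4.0.16 under R 4.3.3 (default expression filter, TMM, quasi-likelihood test, Benjamini-Hochberg adjustment over 9141 genes). The standard error was the absolute log2 fold change divided by the square root of F. CPM values are TMM-normalised, except the range of 0.180 to 0.274, and level per kb uses the gene length of the table. Counts cannot separate near-identical copies, and read duplicates were not marked by molecular identifiers as far as stated. All adjusted p-values are from edgeR unless DESeq2 1.42.0 is named. Same-group libraries differed by more than sampling noise in every pair (chi-square per gene of 15.3 to 230.2).

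The members, the groups and the gene lists were chosen with earlier results of these data known, and 1 listed gene is not reported here. In each group, genes were named when they were among the 4 highest per kb, or among the 4 called members with the largest rise or fall at a mean of at least 1 CPM, along with all vitamin D and retinoic acid members and those listed as higher in male or female mice. Cyp2c23, Cyp2j7, Cyp4f14, Cyp4f18, Cyp1a1, Cyp2d10 and Cyp11b1 were named after their values were seen. The alternatives were scaling by total library size, by the upper quartile or by the size factors of DESeq2, DESeq2 with and without the filter, edgeR without a filter or with a minimum of 10 counts per library, edgeR's test of a fold change beyond 1 on the log2 scale, the fit without mitochondrial and the most abundant genes, a replicate block, the library set as a covariate or its first set alone, the removal of cisplatin 1 and 3, and of each library in turn. Role-group counts and the interaction under these settings, and the lists and sums without cisplatin 1 and 3, were added after seeing the data. On counts simulated for this comparison, with 198 genes of log2 change 2 among 8993, edgeR called 84.8% in the right direction and 14 unchanged genes. DESeq2 recovered 92.5% of 200 among 9141 and called 32 unchanged genes. The simulated counts held no library sets and a far smaller share of changed genes than was called here, so these rates need not hold for the data. Replicate numbers 1 and 3 occur in both groups. Their pairing was not established, and 2 pairs are too few to judge it.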

Additional observations from a re-analysis of the deposited data

Results flagged for a closer look

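The level of Cyp4a10 in cisplatin 1, 344 CPM, stood apart from the other 3 cisplatin libraries (504 to 523 CPM) by more than a gap test for groups of 4 allows, and so did that of Cyp46a1 in control 3, 3.49 CPM, against 4.61 to 4.79 CPM in the other controls. These were 2 of 44 groups examined, and chance alone flags about 1 in 20. An interaction term put the difference between the library sets past the threshold for 3 members. The sets were taken from the principal components of the same libraries, the second with 1 control, and without control 1 all 3 lay above the threshold (adjusted p = 0.0624 to 0.0925, edgeR). On the log2 scale, the second set minus the first was 5.24 for Cyp2e1 (adjusted p = 0.0177), 2.46 for Cyp4b1 (adjusted p = 0.0213) and 2.22 for Cyp2j5 (adjusted p = 0.0291), with edgeR, and positive values mean a smaller fall in the second set, which held both cisplatin libraries with Y-linked counts.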

How the results depend on the processing

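The number of members called moved by at most 1.5 times under every alternative run, from 3 to 6 higher and from 11 to 16 lower, and leaving out each library in turn gave 4 to 5 higher and 12 to 15 lower. Of the 22 named members that were tested, 13 kept their direction and call in every setting in which they were fitted. Cyp4a10 turned to 0.10 with total library size, and Cyp46a1 to 0.36 with total library size, 0.20 with the replicate block and 0.046 in the first library set alone, none of them called. Cyp4a12b, Cyp2a4 and Cyp2d9 lost their call in 13, 13 and 9 of 21 settings, Cyp2t4 in 3 and Cyp4a31 in 1 (-0.97 with total library size). Over all 27 tested members, 18 had the same call in every setting in which they were fitted. Of those not named by the rule, Cyp4f14 lost its call in 6 of 20 settings and Cyp4f18 gained one in 1 (total library size). Xenobiotic members called higher went from 2 to 1 (Cyp2t4 lost) in the test against a log2 fold change of 1, with at least 10 counts in every library, with the replicate block and in the first set alone. In the vitamin D and retinoic acid group, 1 member (Cyp26b1) was called higher with total library size, with DESeq2 with and without the filter, with edgeR without the filter, with the replicate block and in the first set alone, and leave-one-out gave 0 to 1. Its other member, Cyp24a1, was called lower, 1 in place of 0, with the replicate block and without cisplatin 1 and 3, and leave-one-out gave 0 to 1. The replicate block, which pairs numbers 1 and 3, gave 4 members higher (3 shared with the fit without it) and 16 lower (15 shared). The correlation of same-numbered libraries was 0.249 and 0.279, within the 0.148 to 0.355 of other pairs of the first set. The interaction count went from 3 to 5 with DESeq2 and from 0 to 5 over leave-one-out, and could not be fitted without control 5. The cause of these changes was not tested. Depth limits the 31 members with at most 3 counts in every library, for which a difference was not detectable.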
